A study of Mus musculus with 12 samples.

Results

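Neurotrophins are secreted growth factors of neurons, and the 6 genes described here encode ligands and receptors of that family in mouse hippocampus. Bdnf and Ntf3 encode the ligands brain-derived neurotrophic factor and neurotrophin-3. Ntrk2 and Ntrk3 encode their tyrosine kinase receptors TrkB and TrkC, Ngfr encodes the p75 neurotrophin receptor, and Sort1 encodes sortilin. The genes were chosen by name, with earlier results of these data known, and are 6 of the 48709 gene IDs counted in each library. The study sequenced polyadenylated RNA from the dissected CA1 field of the hippocampus in 12 libraries. In 6 of them (MI 1 to MI 6) the mice had a myocardial infarction made by tying a coronary artery, and in the other 6 (Sham 1 to Sham 6) the mice had comparable surgery without the ligation. No label gives strain, age, sex or time after surgery. Nor does any label tie a library to its own mouse, so p-values rest on the spread between libraries, which may be technical.

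Neurotrophins are made as precursors that proteases cut to the mature ligand. Mature brain-derived neurotrophic factor signals mainly through TrkB and neurotrophin-3 mainly through TrkC, while p75 binds all neurotrophins and, together with sortilin, their uncut precursors. In the hippocampus, brain-derived neurotrophic factor acting on TrkB is known for strengthening synapses after activity, and Ntf3 mRNA of the adult hippocampus is known mainly from dentate granule cells, which neighbour CA1.

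Bdnf is transcribed from several separate start sites that share 1 coding exon, and a count per gene adds the reads of all of them. The sequences below show a pair of these starts, because neural activity is known to act on Bdnf through short elements bound by CREB and related factors. RefSeq's promoter table for GRCm38.p6 (250 bases before to 50 after each start) held windows for 4 of the 6 genes, with 7 for Bdnf, 2 for Ntf3, 1 for Ntrk2 and 1 for Ngfr. The letters TGACGTCA, TCACGTCA and TCACGTAA were searched on both strands. They were present in 1.79%, 0.441% and 0.18% of all 32851 windows, and any of them in 2.37%. A match was found in 2 of the 7 Bdnf windows and in none of the 4 windows of the other genes. Such elements were already known at Bdnf, so these counts and shares are no test of enrichment. Each line gives 68 bases that end before the start site, 5′ to 3′ on the plus strand, with the matched letters in capitals. A match is a description of these letters and shows no binding, and no match says only that the letters are not in that window.
Bdnf, chr2:109674592-109674659, match beginning at -78 from the start at 109674700: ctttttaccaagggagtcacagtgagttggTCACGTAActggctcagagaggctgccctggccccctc
Bdnf, chr2:109692368-109692435, match beginning at -38 from the start at 109692436: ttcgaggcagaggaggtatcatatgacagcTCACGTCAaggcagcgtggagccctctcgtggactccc

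Library totals ran from 20764133 counts (Sham 1) to 35643127 (Sham 5). All 6 genes passed the filter on low counts that left 16829 genes for testing. The 12 libraries fell into 2 sets of 6, with 3 MI and 3 Sham libraries in each, by whether counts of 4 Y-linked genes or of Xist were high. The Y-linked set held MI 1, MI 3, MI 4 and Sham 1, Sham 2, Sham 3, and the study did not define these sets. All 5 CA1 pyramidal markers (Wfs1, Fibcd1, Pou3f1, Mpped1, Gpr161) were detected, at a summed level of 999.7 to 1324 CPM (counts scaled to library size) in MI and 594 (Sham 1) to 1529 (Sham 5) in Sham. Markers of neighbouring tissue varied between libraries. The 8 dentate granule cell markers (Prox1, Dsp, C1ql2, Tdo2, Lct, Trpc6, Plk5, Il16) summed to 43.4 to 287 CPM in MI and 63.2 to 767 in Sham, where Sham 6 was highest. Their difference was negative for 7 and positive for 1, with a median log2 fold change of -0.476. The 8 meningeal fibroblast markers (Col1a1, Col1a2, Col3a1, Dcn, Lum, Ogn, Aldh1a2, Fmod) summed to 76.5 to 145 CPM in MI and to 40.5 (Sham 6) to 281 (Sham 1) in Sham. Their difference was negative for 8 of 8, with a median log2 fold change of -0.914. The 7 oligodendrocyte markers (Mbp, Mog, Mag, Mobp, Cnp, Cldn11, Opalin) summed to 3536 to 4434 CPM in MI and 1857 to 3796 in Sham, with a positive difference for 7 of 7. No marker of these lists was at 0 in all libraries and none passed the adjusted threshold between the groups. Because tissue was measured in bulk, fewer cells of a type and less RNA per cell cannot be told apart in any value below.

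Per kilobase of exon, sortilin and TrkB transcripts stood far above the ligands. The mean level over 12 libraries was 99.97 CPM per kb for Sort1 (72.4 to 122), higher than 98.2% of the tested genes. It was 37.3 CPM per kb for Ntrk2 (34.2 to 41.6), 11.05 for Ntrk3 (9.36 to 14.1) and 5.30 for Bdnf (3.64 to 8.10). Ntf3 followed at 1.64 CPM per kb (0.646 to 3.95) and Ngfr was lowest at 0.714 (0.291 to 0.960), a level above 18.5% of the tested genes. The ranges of Bdnf and Ntf3 overlapped, as did those of Ntf3 and Ngfr, and those of the other neighbours in this order did not. Per kilobase of the longest transcript instead, Ntrk2 (75.4 to 91.7 CPM per kb) overlapped Sort1 (80.2 to 135). The genes also differed in how far libraries spread. The coefficient of variation of CPM over 12 libraries was 5.48% for Ntrk2, 12.6% for Ntrk3, 13.8% for Sort1, 27.2% for Bdnf, 27.3% for Ngfr and 57.3% for Ntf3. The highest library was 1.22 times the lowest for Ntrk2 and 6.11 times for Ntf3. The biological coefficient of variation, edgeR's spread between libraries of a group beyond counting error, was 45.8% for Ntf3 against a median of 15.4% for genes of like counts. It was 24.7% for Bdnf against 8.62%, and 8.34% for Ntrk2 against 10.9%.

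None of the 6 genes differed between MI and Sham past the adjusted threshold (edgeR quasi-likelihood test, Benjamini-Hochberg adjusted p under 0.05). In the same test 0 of 16829 genes passed (0.0%), so the members' count equals the background. At an unadjusted p under 0.05 the count was 1270 genes (7.55%) and 0 of the 6. DESeq2 called 11 of 32330 genes (0.034%) and limma-voom called 0, in both cases with none of the 6. The groups overlapped for all 6 genes, beside 69 of 16829 genes (0.41%) whose groups did not. On simulated counts of this comparison the edgeR test recovered 78% of genes changed 1.5-fold and 18% of those changed 1.2-fold. The 200 changed genes had a mean of at least 50 counts and were simulated independently of each other. These shares do not give the power for any of the 6, of which Ntf3 and Bdnf spread more than genes of like counts.

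**Figure D1:**
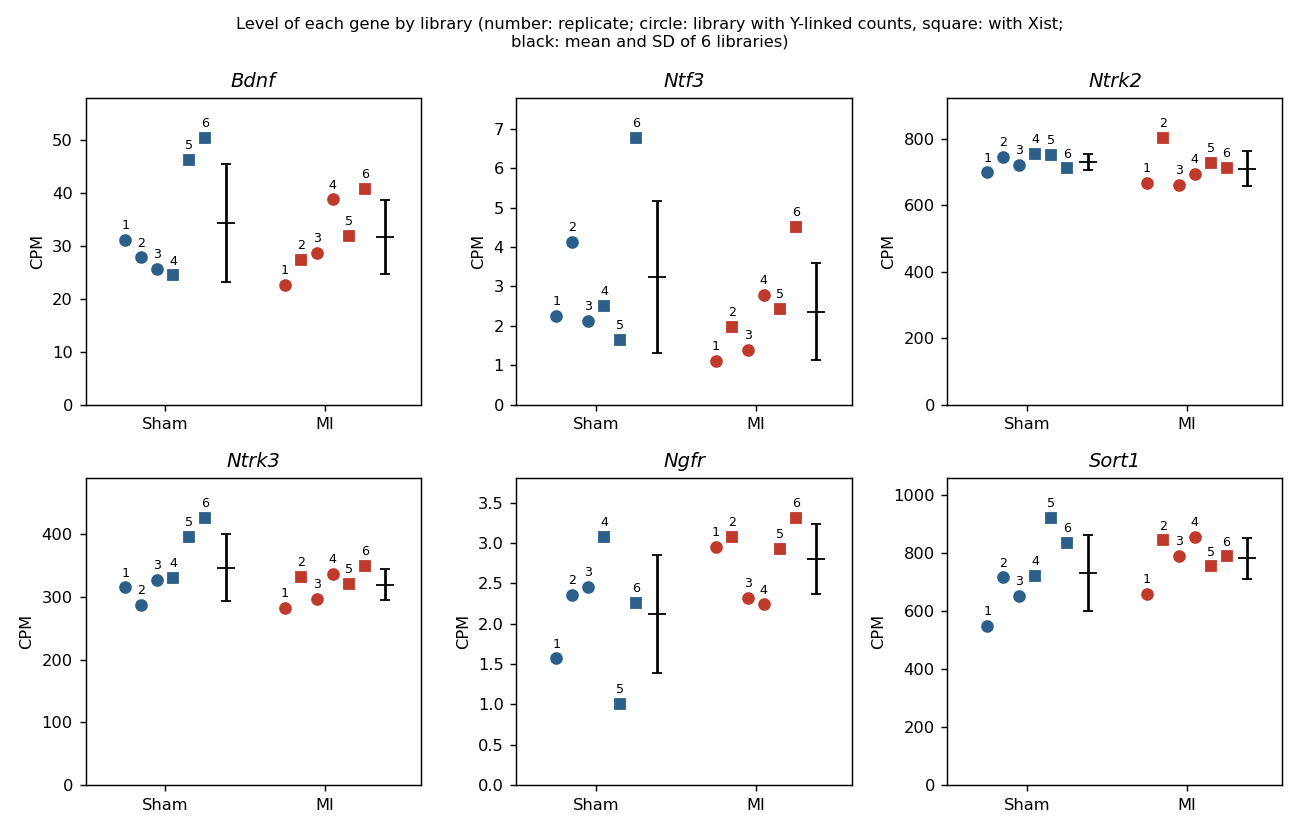
Level of each gene in CPM (vertical axis, starting at 0) in the 6 Sham (blue) and 6 MI (red) libraries, numbered by replicate, with circles for libraries with Y-linked counts and squares for those with Xist. Black marks give the mean and SD of 6 libraries, and in all 6 panels the 2 groups overlap.

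Bdnf encodes the main ligand of TrkB (gene ENSMUSG00000048482, mm10 chromosome 2, 109674700 to 109727007, plus strand). In MI it ranged from 22.6 CPM (MI 1) over a median of 30.3 to 40.7 (MI 6). In Sham it ranged from 24.4 CPM (Sham 4) over a median of 29.5 to 50.4 (Sham 6). Sham 5 (46.1 CPM) and Sham 6 lay above every MI library, while the other 4 Sham libraries lay between 24.4 and 31.2 CPM, within the MI range. Means were 34.3 ± 11.2 CPM for Sham and 31.7 ± 6.94 for MI (SD, n = 6 each). Its log2 fold change was -0.11 (SE 0.20, edgeR adjusted p = 0.935), and its 95% interval allowed a fold between 0.681 and 1.26. Single libraries moved the value between -0.20 (without MI 6) and 0.03, and it was -0.01 without Sham 5. The sign rested on Sham 6: without that library the log2 fold change was 0.03, without Sham 1 and Sham 6 it was 0.03, and limma-voom with sample weights gave 0.16. Bdnf shares 14.4% of its exon bases with the antisense gene Gm45346, which drew 17 counts over all libraries against 10333 for Bdnf. The library kit, TruSeq RNA v2, does not mark strand, so reads of the shared bases cannot be assigned to either gene.

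Ntf3 encodes the main ligand of TrkC (ENSMUSG00000049107, chromosome 6, 126101412 to 126166910, minus strand). Its counts were low, 24 to 153 per library. In MI it ranged from 1.11 CPM (MI 1) over a median of 2.20 to 4.52 (MI 6). In Sham it ranged from 1.65 CPM (Sham 5) over a median of 2.38 to 6.77 (Sham 6). The highest library of each group was number 6, and Sham 2 followed at 4.13 CPM. Both of these number 6 libraries also had the highest summed dentate markers of their group, 287 and 767 CPM. Means were 3.24 ± 1.92 CPM for Sham and 2.36 ± 1.23 for MI (SD, n = 6 each). The log2 fold change was -0.42 (SE 0.39, edgeR adjusted p = 0.848), and the interval allowed a fold from 0.414 to 1.35. Without Sham 6 the log2 fold change was -0.08, without MI 6 it was -0.73, and with the dentate and meningeal marker scores as covariates it was -0.10. With the dentate score alone it was -0.40, and the part of dentate tissue in the difference was not tested beyond these values.

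Ntrk2 encodes TrkB (ENSMUSG00000055254, chromosome 13, 58806569 to 59133970, plus strand), and a count per gene adds its full-length kinase form and the truncated form known from astrocytes. In MI it ranged from 659.7 CPM (MI 3) over a median of 702.8 to 802.0 (MI 2). In Sham it ranged from 698.3 CPM (Sham 1) over a median of 732.8 to 753.6 (Sham 4). MI 2 alone lay above every Sham library, and 3 MI libraries lay below every Sham library. These were MI 1, MI 3 and MI 4, the MI libraries of the Y-linked set. Means were 729.6 ± 22.8 CPM for Sham and 709.9 ± 51.7 for MI (SD, n = 6 each). On the log2 scale the fold change was -0.04 (SE 0.05, edgeR adjusted p = 0.906), with -0.02 without MI 1, -0.08 without MI 2 and -0.02 without MI 3. With 14453 to 25452 counts per library this was the tightest of the 6 estimates, and the interval allowed a fold from 0.898 to 1.05.

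Ntrk3 encodes TrkC (ENSMUSG00000059146, chromosome 7, 78175959 to 78738012, minus strand). In MI it ranged from 282.4 CPM (MI 1) over a median of 326.4 to 349.3 (MI 6). In Sham it ranged from 287.0 CPM (Sham 2) over a median of 328.9 to 425.8 (Sham 6). Sham 5 (396.3 CPM) and Sham 6 lay above every MI library, as they did for Bdnf. Means were 347.1 ± 52.7 CPM for Sham and 319.7 ± 25.3 for MI (SD, n = 6 each). Between the groups the log2 fold change was -0.12 (SE 0.09, edgeR adjusted p = 0.807), and the interval allowed a fold from 0.803 to 1.06. Without Sham 6 the log2 fold change was -0.05, and without Sham 5 it was -0.08. With the dentate and meningeal marker scores as covariates it was -0.15 (edgeR adjusted p = 0.789). An antisense gene inside the locus, Gm9885, drew 1397 counts against 103606 and shares no exon base with Ntrk3.

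Ntrk3 was the 1 gene of the 6 that the authors' deposited tables list as changed. These tables hold 542 genes higher and 517 lower in MI, and 1025 of the 16829 genes tested here (6.09%) are in them. The authors' deposited table gives Ntrk3 a log2 fold change of -0.13 with an adjusted p of 0.0348, close in size to the -0.12 from the counts. The spread differed more than the difference did. In the authors' deposited table the log2 values of Ntrk3 ran from 12.86 to 12.94 in MI and from 12.90 (Sham 2) to 13.09 (Sham 3) in Sham, so that the groups overlapped only through Sham 2. Their SD over libraries was 0.0341 in MI and 0.0728 in Sham, where the log2 CPM from the counts had 0.116 and 0.214. Sham 6, the highest library in the counts, stood at 12.98 in the authors' deposited table, below Sham 1, Sham 3, Sham 4 and Sham 5. No source used here says how those values were made.

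**Figure D2:**
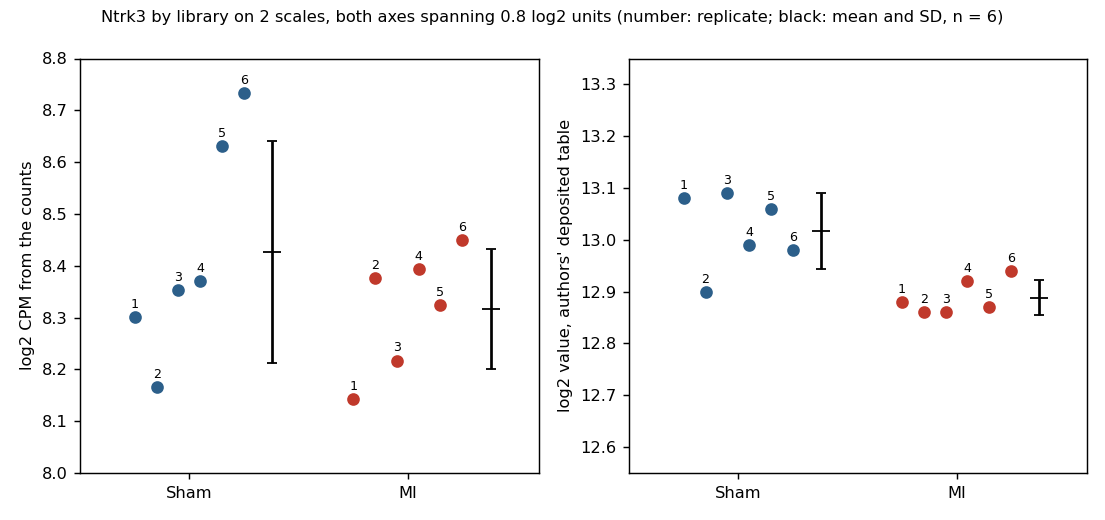
Ntrk3 by library as log2 CPM from the counts (left) and as the log2 value of the authors' deposited table (right), with both vertical axes spanning the same number of log2 units and black marks for the mean and SD of 6 libraries. The difference between group means is alike on both scales, while the SD of the Sham libraries is 0.214 on the left and 0.0728 on the right.

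Ngfr encodes p75, which in adult brain is known mainly from cholinergic neurons of the basal forebrain (ENSMUSG00000000120, chromosome 11, 95568818 to 95587735, minus strand). It had 34 to 112 counts per library. In MI it ranged from 2.24 CPM (MI 4) over a median of 2.94 to 3.31 (MI 6). In Sham it ranged from 1.002 CPM (Sham 5) over a median of 2.31 to 3.08 (Sham 4). The median of Sham was exceeded by 5 of the 6 MI libraries, and MI 2 (3.080 CPM) and MI 6 lay above the highest Sham library, MI 2 by less than 0.01 CPM. Means were 2.12 ± 0.729 CPM for Sham and 2.80 ± 0.43 for MI (SD, n = 6 each). The log2 fold change of 0.41 (SE 0.22) was the largest positive one of the 6 and did not pass the test (edgeR adjusted p = 0.696). The interval allowed a fold between 0.959 and 1.85. Across the 24 alternative settings the log2 fold change stayed between 0.25 (without Sham 5) and 0.59. The upper value came with the dentate and meningeal marker scores as covariates (edgeR adjusted p = 0.789). Across these settings the adjusted p stayed between 0.486 and 0.931. Markers of cell types best known for p75 were low, as Ngfr itself was, and whether such cells were its source was not tested. The cholinergic markers Chat and Slc18a3 were under the filter, and with Slc5a7 the list summed to 0.857 to 1.54 CPM. Of the Schwann cell markers Pmp2 was under the filter, and with Prx that list summed to 2.12 to 4.63 CPM.

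Sort1 encodes sortilin, a sorting receptor that carries the precursor of brain-derived neurotrophic factor inside neurons and joins p75 at the cell surface (ENSMUSG00000068747, chromosome 3, 108284082 to 108361511, plus strand). In MI it ranged from 657.5 CPM (MI 1) over a median of 789.0 to 854.6 (MI 4). In Sham it ranged from 548.0 CPM (Sham 1) over a median of 719.1 to 920.0 (Sham 5). The Sham range enclosed all 6 MI libraries, of which 5 were above the median of Sham. Means were 732.1 ± 131.5 CPM for Sham and 781.3 ± 71.4 for MI (SD, n = 6 each). The log2 fold change was 0.09 (SE 0.11, edgeR adjusted p = 0.891), and the interval allowed a fold between 0.906 and 1.26. It was 0.02 without Sham 1, 0.06 without Sham 3 and 0.17 without Sham 5. With the dentate and meningeal marker scores as covariates it was 0.01. Sort1 shares 4.47% of its exon bases with the antisense gene Gm12523, which drew 12 counts against 236584.

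Within the Y-linked set (3 MI against 3 Sham libraries) 200 of 16829 genes (1.19%) passed the adjusted threshold in edgeR, none of them among the 6. Within the Xist set 0 genes passed (0.0%). Both within-set comparisons came from 1 model fitted on all 12 libraries, so their spread was pooled over both sets. At an unadjusted p under 0.05 the counts were 2608 genes (15.5%) in the Y-linked set and 299 (1.78%) in the Xist set, with 0 of the 6 in either. These counts were not recomputed with libraries left out or with another tool. The difference between the sets was tested by the interaction. The interaction passed the adjusted threshold for 2 of 16829 genes (0.0119%), Trh and Gpr37, and for 0 of the 6 (edgeR). These 2 genes were named after their values were seen. At an unadjusted p under 0.05 the interaction had 1386 genes (8.24%) and 0 of the 6. Sort1 had a log2 fold change of 0.26 in the Y-linked set and -0.05 in the Xist set, with the smallest interaction p of the 6 genes (edgeR adjusted p = 0.638). Bdnf had 0.09 and -0.27 (edgeR adjusted p = 0.7998), with Sham 5 and Sham 6, its highest libraries, both in the Xist set. Ntrk3 had -0.02 in the Y-linked set and -0.20 in the Xist set (edgeR adjusted p = 0.705). Ngfr had 0.23 and 0.58, and Ntf3 had -0.70 and -0.24, so that for these genes the sign was the same in both sets. Ntrk2 had -0.10 in the Y-linked set and 0.02 in the Xist set, and its interaction did not pass (edgeR adjusted p = 0.724).

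**Figure D3:**
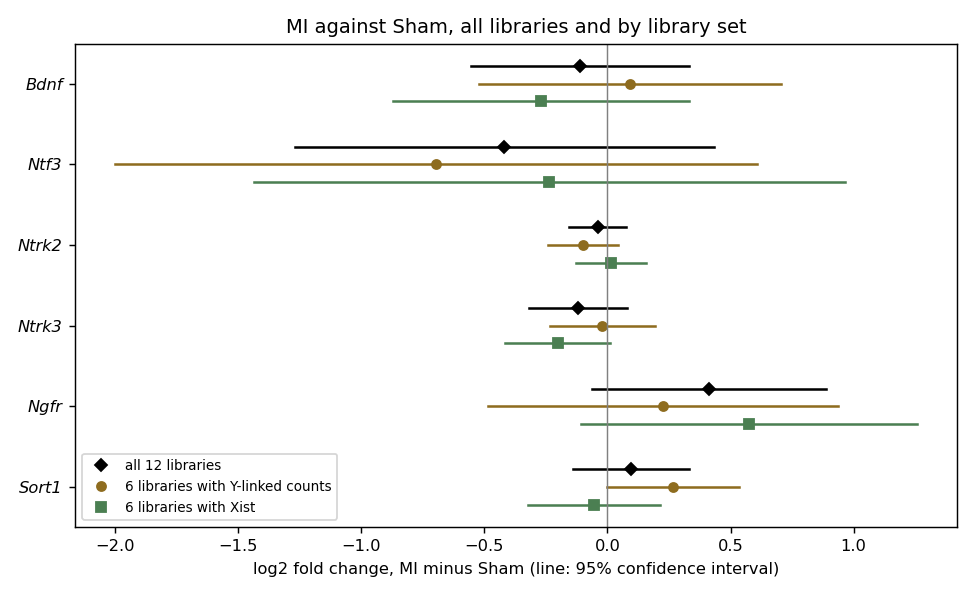
Log2 fold change of MI against Sham (horizontal axis) for each gene, in all 12 libraries (black diamonds), the 6 libraries with Y-linked counts (brown circles) and the 6 with Xist (green squares), with lines for the 95% confidence interval. The 6 black intervals cross 0, from the narrowest for Ntrk2 (-0.16 to 0.08) to the widest for Ntf3 (-1.27 to 0.43). The brown and green intervals come from 1 model of all 12 libraries, with the spread pooled over both sets.

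The 6 genes did not vary as a block across libraries. Among the 15 pairs, 1 passed after adjustment: log2 CPM of Bdnf and of Ntrk3, the receptor gene of the other ligand, had Pearson r = 0.837 (permutation p = 0.00047, adjusted p = 0.00705) and Spearman rho = 0.699 (permutation p = 0.0140, adjusted p = 0.129) over 12 libraries. The r was 0.844 within MI, 0.864 within Sham, 0.683 in the Y-linked set and 0.866 in the Xist set. Without Sham 5 and Sham 6, the libraries farthest from the median of Bdnf, it was 0.579 (permutation p = 0.0777). Leaving out the ends of a range can by itself lower r. Bdnf and its own receptor gene Ntrk2 had r = 0.009 (adjusted permutation p = 0.978; rho -0.098, permutation p = 0.765). Ntf3 and its receptor gene Ntrk3 had r = 0.498 (adjusted permutation p = 0.295; rho 0.455, permutation p = 0.140), which was -0.159 without MI 1 and Sham 6.

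The levels of Bdnf, Ntrk3 and Sort1 correlated with marker lists of other cells and tissue across libraries. Each of the 6 genes was set against 13 marker lists as the mean log2 CPM of a list's tested markers, 78 relations in all, of which 6 passed after adjustment. Against the dentate markers, Bdnf had r = 0.80 (permutation p = 0.00146, adjusted p = 0.0304) and rho = 0.797 (permutation p = 0.00319, adjusted p = 0.0519). Within MI, Sham, the Y-linked set and the Xist set the r was 0.844, 0.781, 0.739 and 0.810. Without MI 1 and Sham 6, the libraries farthest from the median of the dentate score, it was 0.598 (permutation p = 0.0680). Ntrk3 had r = 0.782 against the same markers (permutation p = 0.00267, adjusted p = 0.0347) and rho = 0.860 (permutation p = 0.00071, adjusted p = 0.0208). Its r was 0.971 within MI, 0.774 within Sham, 0.390 in the Y-linked set and 0.765 in the Xist set. Without MI 1 and Sham 6 it was 0.484 (permutation p = 0.157). Among relations that missed the threshold with an adjusted p under 0.06, Ntf3 against these markers had r = 0.755 (permutation p = 0.00510, adjusted p = 0.0536), rho = 0.601 (permutation p = 0.0424) and 0.392 without MI 1 and Sham 6. Sort1 against them had r = 0.734 (permutation p = 0.00693, adjusted p = 0.0577), rho = 0.776 (permutation p = 0.00429) and 0.801 without MI 1 and Sham 6. Against the 6 interneuron markers (Gad1, Gad2, Slc32a1, Pvalb, Sst, Vip) Ntf3 had r = -0.741 (adjusted permutation p = 0.0536) and Bdnf had r = -0.695 (adjusted permutation p = 0.0577), with -0.238 and -0.314 without MI 1 and Sham 6.

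Sort1 gave the closest of these 78 relations. Against the 4 neocortex markers (Rorb, Cux2, Fezf2, Tbr1) it had r = -0.927 (permutation p = 1e-05, the smallest these permutations can give, adjusted p = 0.00078) and rho = -0.895 (permutation p = 0.00017, adjusted p = 0.0133). The r was -0.927 within MI, -0.986 within Sham, -0.983 in the Y-linked set and -0.911 in the Xist set. Without Sham 1 and Sham 5 it was -0.840 (permutation p = 0.00226). Those markers summed to 310 CPM in Sham 1, where Sort1 was lowest, and to 132 CPM in Sham 5, where Sort1 was highest. Against the 5 microglia markers (Cx3cr1, P2ry12, Tmem119, Csf1r, C1qa) Sort1 had r = 0.813 (permutation p = 0.00108, adjusted p = 0.0304) and rho = 0.853 (permutation p = 0.00080, adjusted p = 0.0208). The r was 0.652 within MI, 0.874 within Sham, 0.832 in the Y-linked set, 0.749 in the Xist set and 0.777 without Sham 5 and Sham 6 (permutation p = 0.00721). Against the meningeal markers it had r = -0.789 (permutation p = 0.00220, adjusted p = 0.0343) and rho = -0.790 (permutation p = 0.00333, adjusted p = 0.0519). Within Sham, MI, the Y-linked set and the Xist set that r was -0.928, -0.268, -0.822 and -0.797. Without Sham 1 and Sham 2 it was -0.620 (permutation p = 0.0589). Against the 5 CA1 markers it had r = 0.820 (permutation p = 0.00156, adjusted p = 0.0304) and rho = 0.741 (permutation p = 0.00791, adjusted p = 0.0881), with 0.653 within MI, 0.856 within Sham, 0.828 in the Y-linked set and 0.787 in the Xist set. Without Sham 1 and Sham 5 that r was 0.429 (permutation p = 0.215). The CA1 and microglia lists were shortened after their values were known, and the CA1 relation had missed the threshold before that. The part of tissue makeup in the level of these genes was not tested further.

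**Figure D4:**
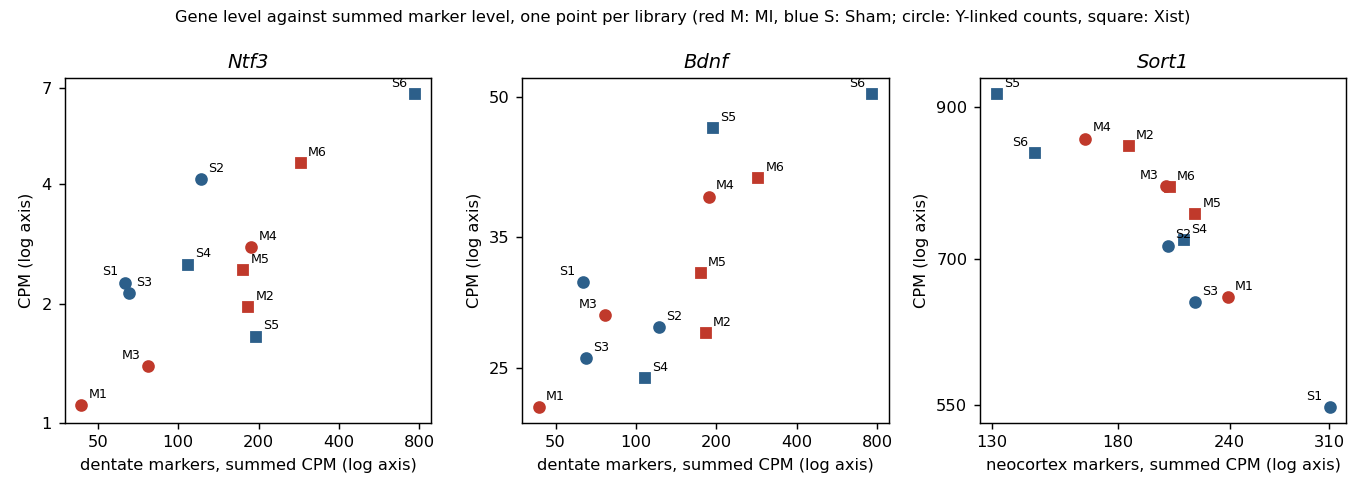
CPM of Ntf3, Bdnf and Sort1 (vertical log axes) against the summed CPM of dentate or neocortex markers (horizontal log axes), 1 point per library (M for MI in red, S for Sham in blue, with circles for Y-linked counts and squares for Xist). Sham 6 stands alone at 767 CPM of dentate markers with the highest Bdnf and Ntf3, and Sort1 runs from 920.0 CPM in Sham 5 down to 548.0 in Sham 1 as neocortex markers go from 132 to 310 CPM.

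The genes whose log2 CPM ran most like each of the 6 were ranked by Pearson r over the 12 libraries among 13584 genes, as a description with no test. For Bdnf they were Anxa11 (r = 0.934), Ccdc71l (0.933) and Pcdhb17 (0.927). For Ntf3 they were Cdh9 (0.958), Syt7 (0.923) and Wnk4 (0.912). For Ntrk2 the likeness was lowest, with Gm340 (0.861), Mettl4 (0.843) and Nf1 (0.835). For Ntrk3 they were Zbtb1 (0.959), Hipk1 (0.953) and Aff4 (0.950), for Ngfr Fn1 (0.908), Tekt5 (0.902) and Tshz2 (0.902), and for Sort1 Iqgap2 (0.976), Thap12 (0.975) and Arhgap12 (0.974).

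The remaining genes of the pathway were grouped by role in 7 lists of 107 genes, of which 104 were tested. None passed the adjusted threshold. The log2 fold change was positive for 57 and negative for 47 of them, with a median of 0.01, beside 8011 positive, 8818 negative and a median of -0.01 over all tested genes. At an unadjusted p under 0.05, 4 were higher and 3 lower in MI, where the share over all tested genes was 3.95% higher and 3.59% lower. The split of signs changed with the setting. Under limma-voom with sample weights 70 were positive and 34 negative, beside 8468 and 8361 of all tested genes. With the dentate and meningeal marker scores as covariates 47 were positive and 57 negative, beside 8103 and 8726.

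Ntf5, which encodes neurotrophin-4, another ligand of TrkB, had 1 to 3 counts in MI libraries and 2 to 6 in Sham libraries and was under the filter. Of the other receptors and the sortilin family all 6 were tested, 4 with a positive and 2 with a negative difference. Sorcs2, a sortilin relative that binds p75, averaged 76.5 ± 8.26 CPM for Sham and 85.0 ± 4.94 for MI (SD, n = 6 each). Its log2 fold change was 0.15 (SE 0.07, edgeR adjusted p = 0.651), with 6 of 6 MI libraries above the median of Sham. The log2 fold changes of the other 5 were 0.14 for Sorl1, 0.04 for Sorcs1, -0.05 for Sorcs3, -0.01 for Rtn4r and 0.01 for Lingo1. The authors' deposited table lists Sorcs3 as lower, with a log2 fold change of -0.23.

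Of 16 genes of neurotrophin processing and receptor cleavage 14 were tested, 9 positive and 5 negative, with a median of 0.03. Furin, which cuts the precursors in the secretory pathway, had a log2 fold change of 0.07, the convertase gene Pcsk1 had -0.25 and Adam17, which sheds p75, had -0.05. Mmp3 had 0 counts in all libraries and Plg at most 5. The authors' deposited table lists Serpini1, an inhibitor of the plasminogen activator, as higher with a log2 fold change of 0.14, where the counts gave 0.09. Of the 41 Trk signalling genes 19 were positive and 22 negative, with a median of -0.01. The smallest p belonged to Shc2, an adaptor of Trk receptors, at -0.12 (SE 0.05, edgeR adjusted p = 0.624), which the authors' deposited table lists as lower with -0.10. Gab1, a docking protein, had 0.20 (edgeR adjusted p = 0.635). It was the 1 of 104 tested pathway genes that passed within a library set, the Y-linked set. Over all genes 200 of 16829 (1.19%) passed there, so this count is near the background. Its log2 fold change was 0.42 in the Y-linked set (edgeR adjusted p = 0.00876) against 0.01 in the Xist set, and its interaction did not pass (edgeR adjusted p = 0.240). Its Y-linked Sham libraries had 25.5 to 28.1 CPM, and the other 9 libraries had 33.2 to 36.4. The kinase ERK1 gene Mapk3 had -0.31 (edgeR adjusted p = 0.639). Of the 16 p75 signalling genes 9 were positive and 7 negative, with a median under 0.01. Those with the smallest p were Arhgdia (0.07), Maged1 (0.06) and Ripk2 (-0.12).

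Of the 11 regulators of Bdnf transcription 3 were positive and 8 negative, with a median of -0.05. Under limma-voom with sample weights 7 were positive and 4 negative, with a median of 0.0022. In the other settings more of them were negative than positive. Mef2c, an activity-dependent transcription factor, averaged 305.2 ± 198.7 CPM for Sham and 154.9 ± 40.5 for MI (SD, n = 6 each), with a log2 fold change of -0.98 (SE 0.37, edgeR adjusted p = 0.606). Sham 1 (641.5 CPM) and Sham 2 (443.0 CPM) were the highest and Sham 5 (106.8 CPM) the lowest of all libraries, with MI between 113.1 and 197.9 CPM. In Sham 5 Bdnf was at 46.1 CPM, among its highest values, and the relation of Bdnf to Mef2c was not tested. Creb1 had -0.09 and Hdac2 had -0.08. Of the 16 genes known to respond to brain-derived neurotrophic factor or to the same activity 13 were positive and 3 negative, with a median of 0.12, and 0 passed the adjusted threshold. This count rested on MI 6: without that library 7 were positive and 9 negative, with a median of -0.02. The median was 0.06 without Sham 2, 0.03 without Sham 4, 0.08 without Sham 6, and 0.20 without Sham 1 or without Sham 5. Dusp5, a phosphatase of ERK, averaged 15.8 ± 5.15 CPM for Sham and 23.0 ± 5.04 for MI (SD, n = 6 each), with a log2 fold change of 0.55 (SE 0.20, edgeR adjusted p = 0.597). For Dusp5, 6 of 6 MI libraries were above the median of Sham, while Sham 3 (23.4 CPM) and Sham 5 (20.5 CPM) reached into the MI range. Vgf, a neuropeptide precursor gene, had 0.18 (edgeR adjusted p = 0.635) and Cort, the cortistatin gene of interneurons, had 0.20 (edgeR adjusted p = 0.785).

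**Figure D5:**
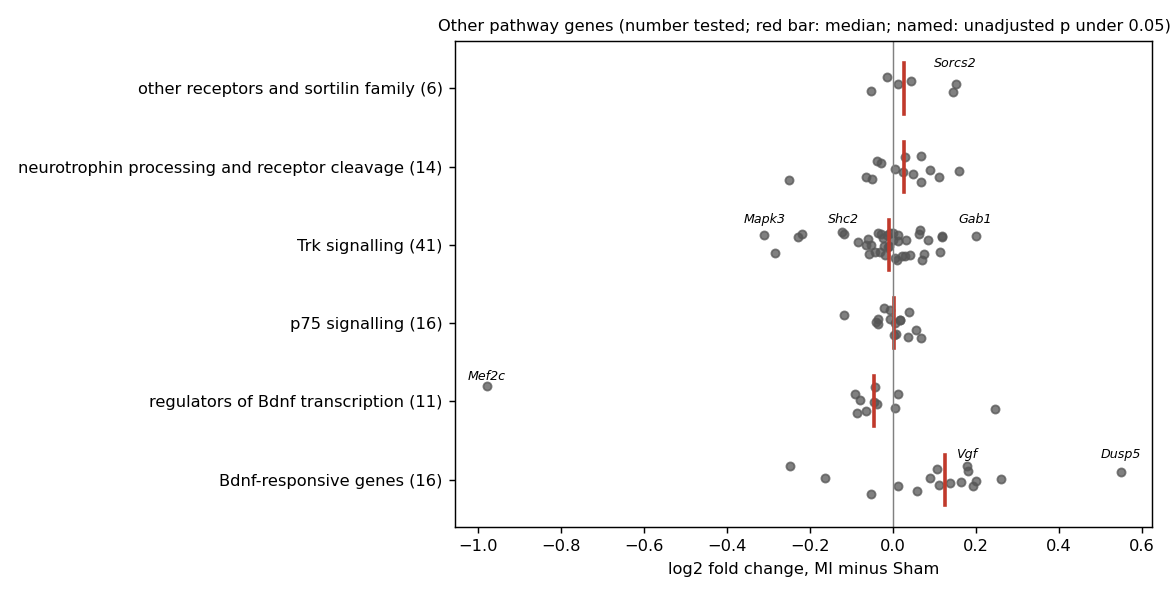
Log2 fold change of MI against Sham (horizontal axis) for the 104 tested genes of 6 pathway lists, 1 point per gene, with the number tested in brackets, a red bar for the list's median and names for genes with an unadjusted p under 0.05. Mef2c (-0.98) and Dusp5 (0.55) lie farthest from 0, and none of the points passed the adjusted threshold.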

How the data were processed

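The authors deposited 1 file of raw read counts by Ensembl gene for each library. The submitters' processing notes name STAR 2.5.2b, featureCounts, Subread 1.5.1, FastQC 0.11.5 and mm10, with no settings. Reads were single-end, 50 bases, per the labels' protocols. The authors also deposited tables of changed genes with log2 fold changes, adjusted p-values and log2 values per library, and no source used here says how they were made. Symbols, positions and lengths came from GENCODE M21.

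Counts were fitted over all genes with edgeR 4.0.16 in R 4.3.3 (filterByExpr, TMM scaling, robust quasi-likelihood F test, two-sided, Benjamini-Hochberg adjustment, threshold 0.05), with no covariate. CPM are TMM-scaled, with a prior count of 2 on the log2 scale. Intervals are 95% intervals from the fit's SE and cover the spread between libraries. Correlations used 100000 two-sided permutations. The 2 libraries left out of a correlation were those farthest from the median of the marker score, or of the first gene of a pair. Leaving out such libraries narrows the range and can by itself lower r. DESeq2 1.42.0, limma 3.58.1 (voom with sample weights), other scalings, filters and covariates, a replicate block and leaving out libraries were alternatives. The fits were tested on simulated data. The genes and lists were chosen with earlier results of these data known. Named are the 6 genes, the 3 genes of each list with the smallest p, the further ligand, receptors and sortilin relatives listed, marker genes of lists used, and the 3 genes most alike each of the 6. List genes in the authors' deposited tables were named after their values were seen. Some list genes are not reported here, and every list was counted, summed and scored without them. Marker lists with no relation near the threshold to any of the 6 genes are not described further. Within-group pairs of libraries differed beyond counting noise (chi-square per degree of freedom at least 6.22 over 30 pairs), so none was counted as a duplicate. Pairs of Sham 5 or Sham 6 with Sham 1 to Sham 4 were the least alike, at 41.3 to 78.2, while MI pairs reached 20.1.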

Additional observations from a re-analysis of the deposited data

Results flagged for a closer look

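Within each group of 6 libraries, a library was noted when its gap to the nearest other, divided by the group's range, was above 0.625. This was tested in 86 series of 6 values, chance gives about 1 in 20, and 5 were noted. None was a value of the 6 genes. Sorcs1, a sortilin relative, had 18.9 CPM in Sham 6, below 27.3 to 33.3 in the other Sham libraries. Hdac2 had 70.1 CPM in MI 1, below 78.8 to 84.4 in the other MI libraries. Vgf had 161 CPM in MI 2, below 185 to 201 in the other MI libraries. Cort had 9.24 CPM in MI 6, above 6.09 to 6.35 in the other MI libraries. The 6 interneuron markers summed to 930 CPM in MI 1, above 865 to 885 in the other MI libraries.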

How the results depend on the processing

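Over 24 alternative settings the 6 genes gave 144 fold changes, of which 141 kept their sign and their side of the threshold. The 3 that reversed were those of Bdnf, at 0.16 with limma-voom, 0.0264 without Sham 6 (single libraries left out gave -0.199 to 0.0264) and 0.0285 without Sham 1 and Sham 6, a setting chosen after seeing the data like the dentate score alone. DESeq2 called 11 genes where edgeR called 0, and edgeR called 0 whichever single library was left out; the cause was not tested. For the interaction, 2 genes passed in edgeR, 83 in DESeq2 and 0 to 61 with single libraries left out (61 without Sham 4, 14 without Sham 3, 0 otherwise); the cause was not tested. Of 78 interaction values of the 6 genes 1 reversed, that of Ngfr without Sham 5 at 0.0107 (range -0.774 to 0.0107). Per kilobase of the longest transcript, Bdnf was at 7.72 CPM, Ntrk2 at 82.3 and Ntrk3 at 16.9, with the order of the 6 means unchanged. Of 168 list medians 4 moved by more than 1 SD of the list's mean level between libraries, those of Trk signalling (0.02 with limma-voom and 0.02 without Sham 5) and of p75 signalling (0.01 and -0.01). The labels give same-numbered libraries of the groups nothing in common but the number. The correlations of their deviations ran from -0.35 to 0.405, so not every pair was above 0.1, and 3 of 6 MI libraries correlated best with their own number. With the replicate block the log2 fold changes were -0.0865 for Bdnf, -0.417 for Ntf3, -0.0419 for Ntrk2, -0.109 for Ntrk3, 0.455 for Ngfr and 0.109 for Sort1, with 0 genes called. Depth limits Ntf3 and Ngfr most, which had as few as 24 and 34 counts in a library.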
